A study of Mus musculus with 14 samples.

Results

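The genes that encode the proteins of the cytosolic ribosome were followed in mouse small intestinal organoids through 2 chromatin readouts, acetylation of histone H3 at lysine 27 (H3K27ac), a mark of active promoters and enhancers, and binding of the transcription factor ONECUT2. Members were the H3K27ac regions and ONECUT2 sites whose nearest protein-coding gene span within 100 kb has a symbol of the Rpl or Rps series, or is Rpsa, Rplp0, Rplp1 or Rplp2, without the Rps6k kinase genes. A region that touched several genes was counted for each of them. This gave 129 of 55050 H3K27ac regions (0.234%) at 79 of the 81 such genes in the gene table, and 15 of 7268 listed ONECUT2 sites (0.206%) at 13 genes. Of the 129 regions, 89 lay in or within 2 kb of a gene, at 77 genes, and are called gene-end regions here, while 40 lay farther away. Rpl10l and Rpl39l had only farther regions. All regions are 2000 bp wide, so their levels can be compared directly. The symbol rule takes in the paralogs Rpl3l, Rpl10l, Rpl39l and Rps27l, and the symbol Fau, whose product also holds a ribosomal protein, falls outside it.

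All organoids came from 1 female Lgr5GFPDTR/+ mouse (line26), a strain in which the Lgr5 locus of stem cells carries a green fluorescent protein fused to the diphtheria toxin receptor. The RANKL group, a protocol that enriches microfold (M) cells of the gut epithelium, had 3 days of 3 µM CHIR99021, a Wnt pathway activator, with 1.5 mM valproic acid, which inhibits histone deacetylases, then 1 day of ENR medium (EGF, Noggin, R-spondin 1), then 100 ng/mL RANKL to day 6. The control group was kept in ENR medium, so that effects of RANKL cannot be told apart from those of the pretreatment. Each antibody had 3 libraries per group, from 3 independent differentiation experiments on this line, and p-values measure the spread between those experiments only.

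Each ribosome has a large and a small subunit, built from ribosomal RNA and one copy of most ribosomal proteins. Their genes are housekeeping genes with short, very active promoters that commonly start transcription in a run of pyrimidines. That start gives their mRNAs the terminal oligopyrimidine tract through which the mTOR pathway controls their translation. In the intestine, dividing crypt cells make ribosomes at a high rate to sustain growth.

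Read totals over the H3K27ac regions ranged from 5434172 to 9160267 in the control libraries and from 2745451 to 3902301 in the RANKL libraries. Summed over all regions of a gene, 25.5% of 16868 tested genes were called higher and 27.1% lower. Of the M cell list, 10 of 12 genes were higher and none lower, with summed levels of 439 to 460 CPM in control and 1028 to 1113 CPM in RANKL libraries. Epithelial genes had the highest sums, 2528 to 2724 CPM in control and 2483 to 2601 CPM with RANKL, and 4 of 12 were higher and 7 lower. Mesenchymal genes summed to 245 to 254 and 317 to 335 CPM (5 of 9 higher, none lower), endothelial genes to 421 to 435 and 475 to 483 CPM (4 of 7 higher, 3 lower) and leukocyte genes to 125 to 144 and 169 to 181 CPM (5 of 7 higher, 1 lower). Markers with no tested level included Cd3e, Cd68, Lum and Tie1. The part of these lists in the results on ribosomal protein genes was not tested. In bulk chromatin, fewer cells with the mark and less of the mark per cell cannot be told apart.

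Ribosomal protein gene ends ranked among the strongest H3K27ac regions. CPM values are counts scaled to library size with TMM factors from the 6 libraries. The strongest gene-end region of each of the 77 genes had a median of 62.6 CPM over the 6 libraries, against 9.42 CPM over all 54765 regions that passed the filter on low counts. These regions were picked by their level, and without that choice the median of all gene-end regions was 58.1 CPM. All tested regions that touch more than 1 gene had a median of 40.5 CPM. The gene ends of other genes as a class were not compared. Of the 77, 65 were in the strongest 10% of all regions, 40 in the strongest 5% and 2 in the strongest 1%. All gene-end regions together, 0.162% of the regions, held 0.520% ± 0.020 (SD, n = 3) of the control reads and 0.487% ± 0.013 (SD, n = 3) of the RANKL reads.

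The order of the levels ran from Rpl4, with 104 CPM on average, to Rps4x, with 20.8 CPM. Rpl4, a core protein that lines the peptide exit tunnel of the large subunit, had 121, 97.8 and 112 CPM in control and 112, 102 and 82.0 CPM in RANKL libraries. Its groups overlapped, as did those of Rps14, the next but one in order (92.5 to 106 CPM in control and 74.5 to 97.1 CPM with RANKL). Neither was called, but Rpl4 was called lower without control replicate 2 (log2 fold -0.24), and Rps14 without that library or RANKL replicate 1 (-0.28 and -0.32). Between them stood Rpl19, at 99.6 CPM, and the control ranges of Rpl4 and Rpl19 did not overlap. At the low end, Rps4x, the X-linked form of a small subunit protein, had 21.1, 20.8 and 19.9 CPM in control and 23.9, 22.9 and 16.4 CPM in RANKL libraries. Rpl36a, also X-linked and next in order, had 24.9, 22.3 and 23.8 CPM and then 25.3, 19.6 and 24.8 CPM. Neither changed between the groups beyond the spread between libraries. Even Rps4x lay at the 71.6th percentile of all regions.

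Where a start of transcription was annotated, the strongest gene-end region mostly lay over it. How reads were spread within a region was not examined. RefSeq start sites (assembly GRCm38.p6, the build of mm10) matched 57 of the 77 genes, and for 54 of them the strongest gene-end region contained a start. Over all 57 genes, the centre of the strongest gene-end region lay a median of 45 bp upstream of the nearest annotated start (quartiles 105 and 3 bp upstream). The 3 genes without their own start in the region were Rpl41, Rpl18 and Rpl3l. Their region sits at the other gene end and contains the start of a neighbour, Zc3h10, Fam83e and Msrb1 in that order.

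Promoter windows of 300 bases, 250 before and 50 from the start, were in hand for 61 members with 73 starts. Short motifs were searched on both strands as exact letters and compared with 32851 windows of all genes. The ETS core CCGGAAG was in 35.6% of member windows and 8.86% of all windows. The palindrome CTCGCGAG was in 11.0% against 0.919%, the pyrimidine stretch CTCTTTC in 27.4% against 8.16%, AAGATGG, part of the YY1 site, in 15.1% against 6.34%, and the GC box GGGCGG in 57.5% against 35.7%. The TATA box TATAAA was in 9.59% against 13.6% and ATTGAT, the core bound by ONECUT factors, in 4.11% against 7.54%. CCGGAAG and AAGATGG can share the letters AAG, and no motif contains another. A match is a description of letters, not a bound site. The median log2 fold of H3K27ac, given without a test, was -0.19 at the 21 start regions with CCGGAAG and -0.16 at the 33 without it. It was -0.03 with CTCTTTC (14 regions) and -0.22 without it (40), and -0.21 with GGGCGG (31) and -0.13 without it (23). With AAGATGG it was -0.08 (8) and without it -0.19 (46), with CTCGCGAG -0.08 (6) and -0.18 (48), with TATAAA -0.31 (5) and -0.16 (49), and with ATTGAT -0.42 (2) and -0.16 (52).

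The windows below, 150 bases before and 20 from the start, belong to genes described next. Capitals mark those of the searched motifs named above (CCGGAAG and its reverse complement, CTCGCGAG, GGGCGG and TATAAA). Rpl10, Rpl39, Rps28 and Rps25 had the clearest losses at a start region, Rpl19 and Rpl35a were the gains, Rps6 stands for the genes without a call, and Rpl22 has an ONECUT2 site over a start.
Rpl10 (chrX:74270666-74270835, plus strand): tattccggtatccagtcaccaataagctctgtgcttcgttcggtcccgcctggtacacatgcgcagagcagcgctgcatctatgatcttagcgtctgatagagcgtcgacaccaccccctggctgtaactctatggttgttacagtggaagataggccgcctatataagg
Rpl39 (chrX:37085203-37085372, minus strand): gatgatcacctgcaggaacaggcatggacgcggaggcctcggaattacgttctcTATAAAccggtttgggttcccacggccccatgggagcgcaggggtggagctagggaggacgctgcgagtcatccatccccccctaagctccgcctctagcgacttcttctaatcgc
Rps28 (chr17:33824543-33824712, minus strand): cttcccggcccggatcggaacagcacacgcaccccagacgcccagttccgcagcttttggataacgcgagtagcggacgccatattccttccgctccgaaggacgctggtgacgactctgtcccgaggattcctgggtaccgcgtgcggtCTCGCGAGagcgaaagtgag
Rps25 (chr9:44407564-44407733, plus strand): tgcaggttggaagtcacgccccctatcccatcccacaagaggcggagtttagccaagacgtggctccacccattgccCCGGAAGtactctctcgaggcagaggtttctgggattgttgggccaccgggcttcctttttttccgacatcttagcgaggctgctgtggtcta
Rpl19 (chr11:98026560-98026729, plus strand): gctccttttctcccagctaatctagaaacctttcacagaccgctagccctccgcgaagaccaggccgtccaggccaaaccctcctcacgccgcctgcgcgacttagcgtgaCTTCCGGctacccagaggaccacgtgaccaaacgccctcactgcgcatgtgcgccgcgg
Rpl35a (chr16:33056303-33056472, plus strand): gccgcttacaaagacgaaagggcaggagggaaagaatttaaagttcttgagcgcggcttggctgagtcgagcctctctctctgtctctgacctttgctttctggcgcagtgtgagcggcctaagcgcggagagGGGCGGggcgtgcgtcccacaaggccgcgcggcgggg
Rps6 (chr4:86857348-86857517, minus strand): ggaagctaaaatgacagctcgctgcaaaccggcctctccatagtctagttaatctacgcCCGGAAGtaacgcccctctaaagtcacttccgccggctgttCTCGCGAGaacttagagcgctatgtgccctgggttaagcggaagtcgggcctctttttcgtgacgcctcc
Rpl22 (chr4:152325576-152325745, plus strand): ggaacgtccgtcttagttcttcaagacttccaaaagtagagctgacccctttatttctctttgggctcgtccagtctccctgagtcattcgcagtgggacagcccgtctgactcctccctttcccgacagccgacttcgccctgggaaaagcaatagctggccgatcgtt
Rps25, Rpl19 and Rps6 share the ETS core, on the minus strand in Rpl19. The CTCGCGAG palindrome stands at the start of Rps28 and also upstream in Rps6. No searched motif is in the windows of Rpl10 and Rpl22.

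The comparison of the RANKL protocol with ENR medium asked where acetylation differed. Most ribosomal protein gene ends differed little on the scales used. These scales are relative to the other regions of a library, so a change shared by all regions would not be seen. Of 89 gene-end regions, 4 were higher, 26 were lower and 59 were not called (quasi-likelihood test of edgeR with p adjusted by Benjamini and Hochberg over all regions, threshold 0.05, 3 against 3 libraries). Over all regions 35.9% were called, 14.8% higher and 21.0% lower. The median log2 fold (RANKL over control) of the gene-end regions was -0.16, against 0.06 over all regions. For the strongest region of each gene, 48 of 77 lay within 0.25 of 0 on the log2 scale and 67 within 0.5, with 2 higher and 23 lower. At 40 of the 89 gene-end regions the groups did not overlap, against 44.9% of all regions.

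**Figure D1:**
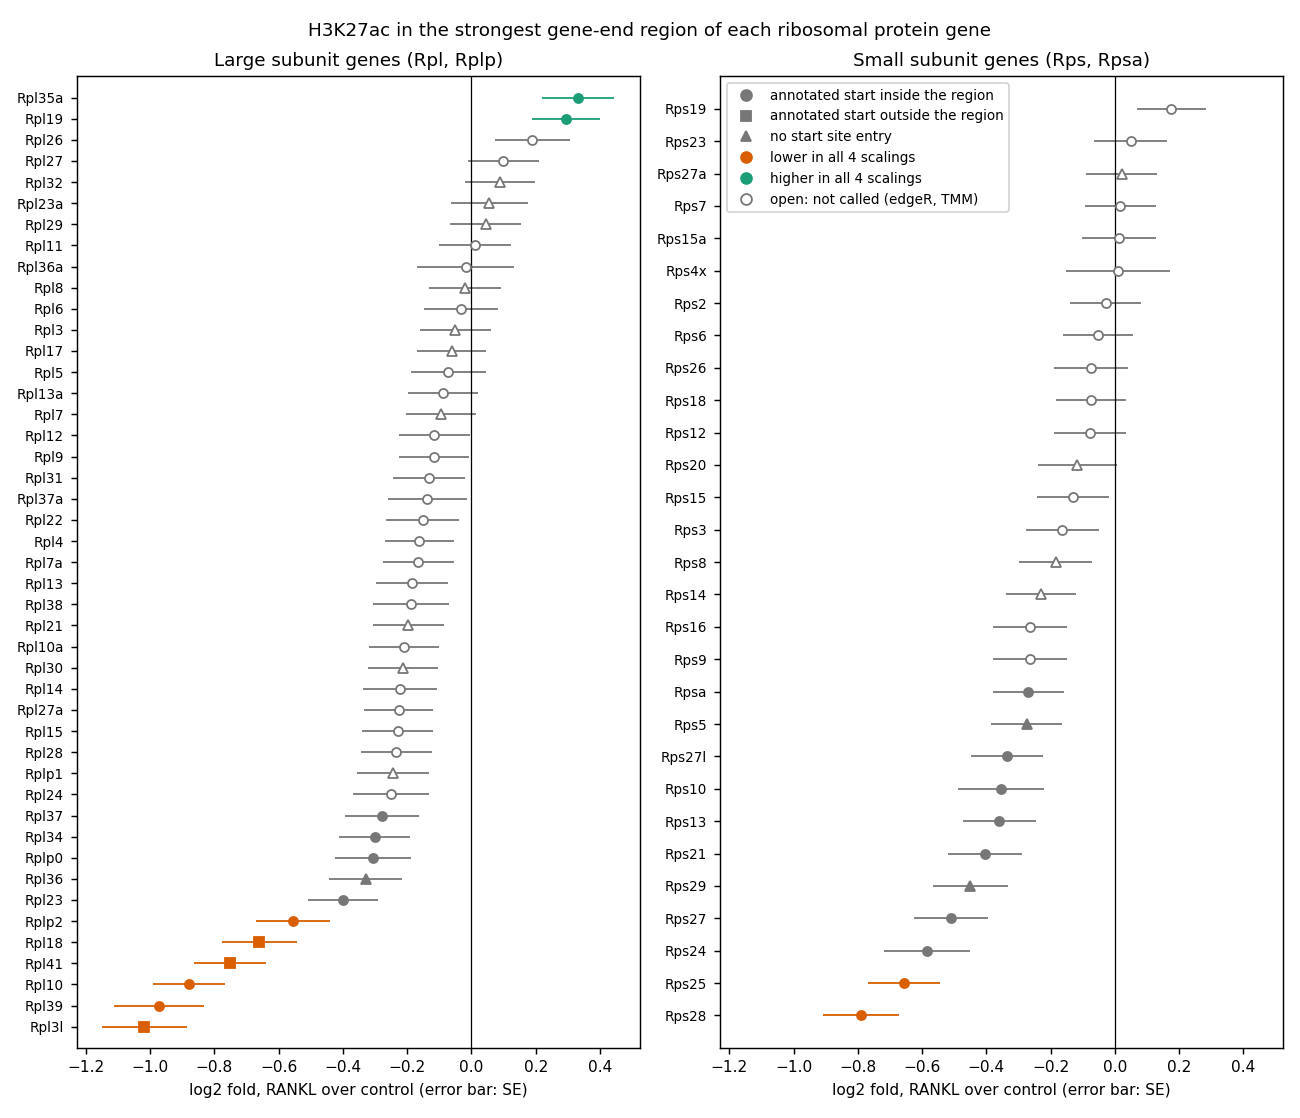
Log2 fold of H3K27ac (x axis, RANKL over control, error bars are SE, 3 against 3 libraries) in the strongest gene-end region of large subunit genes (left) and small subunit genes (right), ordered by fold, with a few genes not shown. Symbols tell whether an annotated start lies in the region, open symbols were not called, and orange and green were called lower and higher under all 4 scalings. Most genes lie between -0.5 and 0.5, with a tail of losses led by Rpl3l, Rpl39 and Rpl10.

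The change over all regions followed signal strength, so the gene ends were also set beside regions of like strength. In the strongest 10% of all regions (46.8 CPM and more) the median log2 fold was -0.28 with an SD of 0.54, and 61.7% were called, 10.8% higher and 50.8% lower. The 66 gene-end regions in that class had a median of -0.18 with an SD of 0.25, and 2 of them were higher and 19 lower. Against 67.6% of the class, 29 of the 66 had groups that did not overlap. With the trend of fold on signal strength removed by a loess fit, 19 gene-end regions were higher and 10 lower, against 15.7% and 15.2% of all regions, and their median log2 fold was 0.09. The direction of the small shift of the group as a whole thus depends on the scaling. A loss under all 4 scalings used (TMM, library size only, DESeq2 size factors and trend removed) was called for 10 gene-end regions and a gain for 4. The share of all regions called under all 4 scalings was not computed. Whether these counts are high or low for regions of this kind thus cannot be said.

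**Figure D2:**
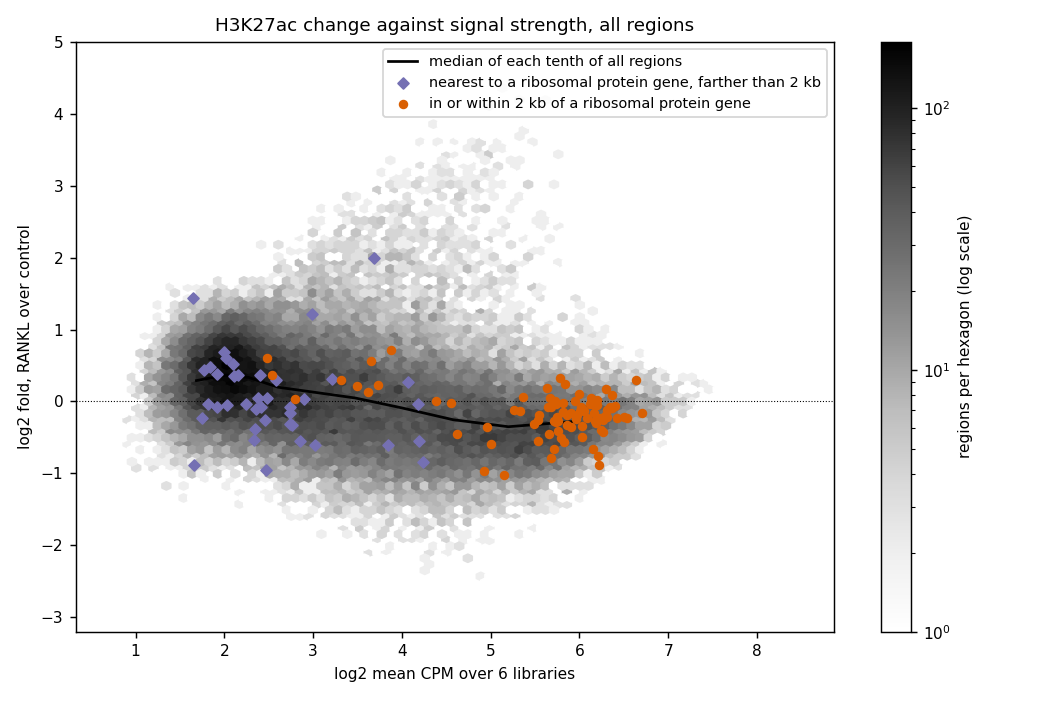
Log2 fold of H3K27ac (y axis) against log2 mean CPM over the 6 libraries (x axis) for all 54765 regions as a density of hexagons, with the running median by signal strength as a line. Gene-end regions of ribosomal protein genes (orange circles) gather at high signal near and above the line, and the farther regions (purple diamonds) are weaker and more scattered.

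**Figure D3:**
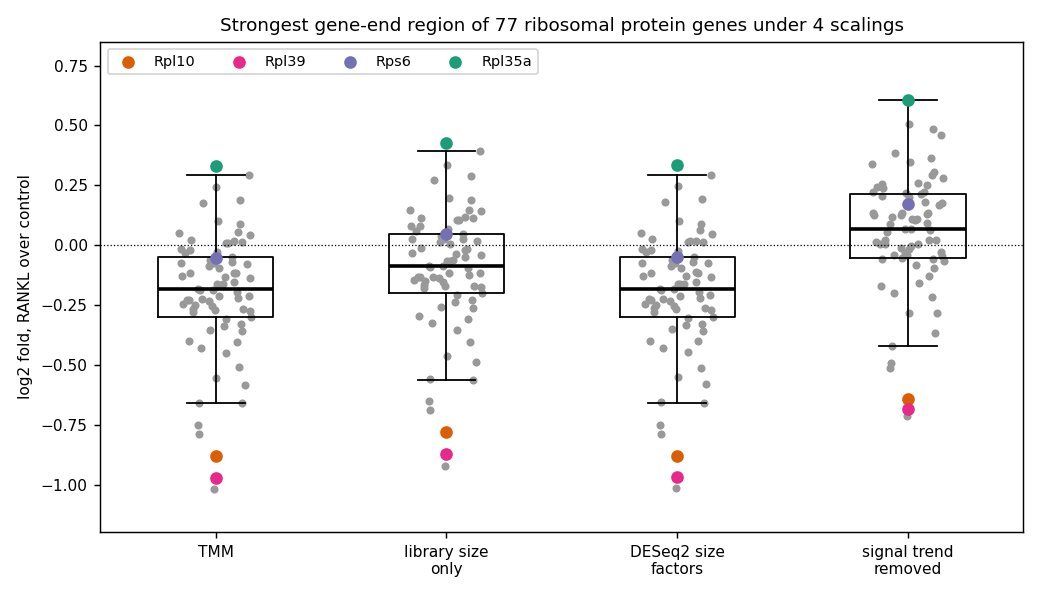
Log2 fold (y axis) of the strongest gene-end region of 77 ribosomal protein genes under 4 scalings (x axis), with boxes for quartiles and median, whiskers to the last value within 1.5 times the box and 4 genes in colour. The median was -0.18 with TMM, -0.09 by library size only and 0.07 with the signal trend removed, while Rpl10 and Rpl39 stayed below 0 and Rpl35a above 0 in all 4.

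The losses that held under all 4 scalings included 2 X-linked genes and several regions shared with a neighbouring gene. Rpl10, a large subunit protein that joins late in assembly next to the transfer RNA sites, had 104, 83.9 and 103 CPM in control and 53.2, 56.2 and 48.2 CPM in RANKL libraries. The groups did not overlap, and the level was 1.84-fold lower with RANKL (log2 fold -0.88 ± 0.11 SE, adjusted p = 5.29e-13 by edgeR). Rpl39, a small protein of the exit tunnel, had 42.9, 38.6 and 39.9 CPM and then 23.2, 15.4 and 22.9 CPM, which was 1.96-fold lower (log2 fold -0.97 ± 0.14, adjusted p = 1.08e-10 by edgeR). The promoter windows of both are printed above. The X-linked Rps4x and Rpl36a had log2 folds of 0.01 ± 0.16 and -0.02 ± 0.15 and were not called. Among the 38 X-linked regions in the strongest 10%, 20 were lower and 3 higher, with a median of -0.29, against -0.28 for that class on all chromosomes.

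Rps28, a protein of the small subunit head, shares its region with Ndufa7, a gene of respiratory complex I. It had 71.5, 62.7 and 61.1 CPM in control and 33.9, 41.1 and 37.4 CPM in RANKL libraries, a 1.73-fold loss (log2 fold -0.79 ± 0.12, adjusted p = 7.76e-10 by edgeR). All RANKL libraries lay below all control libraries. Rps25, a small subunit protein that some viral and cellular internal ribosome entry sites need, shares its region with Trappc4. It had 95.5, 83.6 and 82.9 CPM and then 61.8, 49.8 and 54.7 CPM, again without overlap (log2 fold -0.66 ± 0.11, adjusted p = 7.50e-08 by edgeR). The stalk protein gene Rplp2 (shared with Pidd1) was lower by a smaller amount, with a log2 fold of -0.56 ± 0.12.

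The 3 genes whose region sits away from their own start were all among the losses. The Rpl3l region, shared with Msrb1, had the lowest fold of all members: 42.7, 48.1 and 51.2 CPM in control and 28.2, 21.4 and 21.5 CPM with RANKL (log2 fold -1.02 ± 0.13, adjusted p = 7.86e-13 by edgeR). Rpl3l is the striated muscle paralog of Rpl3, and the annotated start in that region is that of Msrb1. The Rpl41 region had 97.8, 85.5 and 96.6 CPM and then 49.6, 58.9 and 56.4 CPM (log2 fold -0.75 ± 0.11), and the Rpl18 region 68.0, 62.2 and 63.9 CPM and then 37.5, 41.7 and 42.7 CPM (log2 fold -0.66 ± 0.12). In none of the 3 did the groups overlap. Their values cannot be assigned to the ribosomal protein gene rather than to Zc3h10, Fam83e or Msrb1.

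Regions shared with a neighbouring gene were set apart from the others. Of the 19 gene-end regions that also touch another protein-coding gene, 10 were lower and 1 higher, with a median log2 fold of -0.28. Over all 2000 tested regions that touch more than 1 gene, 54.2% were lower and 6.55% higher, with a median of -0.35. Of the 70 gene-end regions that touch 1 gene, 16 were lower and 3 higher, with a median of -0.13. Over all regions 21.0% were lower and 14.8% higher, and in the strongest 10% of regions 50.8% and 10.8%. A share over all regions that touch 1 gene is not given here. Of the 10 losses called under all 4 scalings, 6 were shared regions, and the others included Rpl10, Rpl39 and a region 1.87 kb outside Rpl12. The Rpl12 start region itself was not called (log2 fold -0.12).

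**Figure D4:**
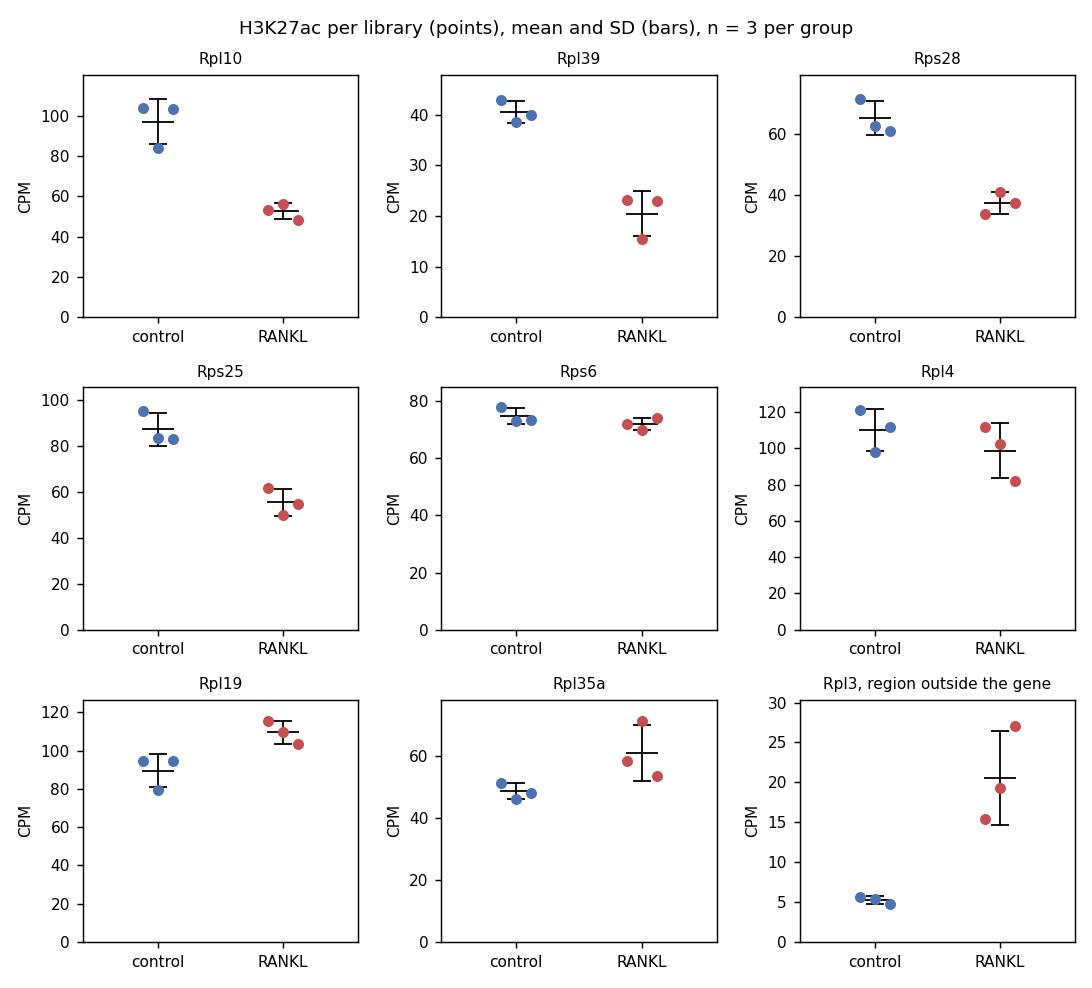
H3K27ac in CPM (y axis, from 0) in each library (points) of the control and RANKL groups, with mean and SD (n = 3 per group), for the strongest gene-end region of 8 genes and the Rpl3 region outside the gene. The groups are separate for Rpl10, Rpl39, Rps28, Rps25, Rpl19, Rpl35a and the Rpl3 region, and overlap for Rps6 and Rpl4.

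In the region fit with TMM, 4 gene-end regions were higher, and the gains at the strongest region of a gene were small. With the signal trend removed, 19 gene-end regions were higher. Summed per gene over gene-end regions only, with TMM factors of that scale, 17 genes were higher and 10 lower. The share of all genes called in such sums is not given here. Rpl19, the large subunit protein of a bridge to the small subunit, had 94.5, 79.5 and 94.7 CPM in control and 115, 110 and 103 CPM in RANKL libraries, a 1.23-fold gain (log2 fold 0.29 ± 0.11, adjusted p = 0.0188 by edgeR). Without RANKL replicate 1 or 2 it was not called (log2 fold 0.26 and 0.29). Rpl35a, a large subunit protein, shares its region with Iqcg and had 51.4, 46.3 and 48.2 CPM and then 58.5, 71.2 and 53.8 CPM (log2 fold 0.33 ± 0.11, adjusted p = 0.0128 by edgeR). Its gain was not called without RANKL replicate 2, the highest library (log2 fold 0.21). The other 2 gains in the region fit with TMM were weak regions that touch Rpl3 and Rps15a, apart from the strongest region of each gene. Their folds were larger, and the Rpl3 region, described below, had a log2 fold of 0.72 ± 0.20. That of Rps15a had 8.31, 11.8 and 9.75 CPM and then 16.1, 16.3 and 13.0 CPM (log2 fold 0.57 ± 0.21). It was not called by the DESeq2 test (adjusted p = 0.0641), nor when any one of control replicates 1 and 3 and RANKL replicates 1 and 2 was left out (log2 fold 0.46 to 0.54).

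Some ribosomal proteins have known roles outside the ribosome or in its control. Rps6, the small subunit protein phosphorylated by the S6 kinases, had 78.1, 72.9 and 73.3 CPM in control and 72.1, 69.7 and 74.0 CPM in RANKL libraries, and the groups overlapped (log2 fold -0.05 ± 0.11). Rpl5 and Rpl11, which bind Mdm2 together with 5S ribosomal RNA when assembly fails, had log2 folds of -0.07 ± 0.12 and 0.01 ± 0.11 at their start and were not called. Rps27a, made as a fusion with ubiquitin, had 0.02 ± 0.11. With the trend removed, Rpl11 and Rps27a were called higher (0.26 and 0.24). Rpl26, which binds p53 mRNA, had 51.0, 41.7 and 46.3 CPM and then 54.3, 55.2 and 48.5 CPM, and the groups overlapped. Its log2 fold was 0.19 ± 0.12, not called, and it was called higher by library size only (0.29) and with the trend removed (0.49). Rpsa, also known as a laminin receptor, had 82.5, 75.6 and 81.6 CPM and then 67.8, 63.4 and 67.0 CPM (log2 fold -0.27 ± 0.11, adjusted p = 0.0418 by edgeR), and was not called under the other 3 scalings. In the stalk, which recruits elongation factors, the log2 fold was -0.31 ± 0.12 for Rplp0 (adjusted p = 0.0319 by edgeR). Rplp0 was not called by library size only (log2 fold -0.21) or with the signal trend removed, where its log2 fold was 0.0039. Rplp1, of the same stalk, was at -0.25 ± 0.11 and was not called. Rps27l, a p53 target and paralog of Rps27, had -0.34 ± 0.11 (adjusted p = 0.0101 by edgeR) and -0.08 with the trend removed, where it was not called. Leaving out any 1 library other than control replicate 2 ended the calls of Rplp0 (log2 fold -0.31 to -0.25) and Rpsa (-0.29 to -0.24), and leaving out RANKL replicate 1 or control replicate 3 ended that of Rps27l (-0.29 and -0.31), with folds close to those of all 6 libraries.

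By subunit, 2 of 46 large subunit genes were higher and 11 lower, and none of 31 small subunit genes was higher and 12 were lower, with medians of -0.18 in both. Over all regions 14.8% were higher and 21.0% lower, and in the strongest 10% of regions 10.8% and 50.8%. The difference between the subunits was not tested. With the trend removed the medians were 0.07 and 0.09. Near the top of the small subunit stood Rps19, a gene mutated in Diamond-Blackfan anaemia. Rps19 had 70.9, 69.8 and 81.0 CPM and then 87.5, 83.9 and 79.1 CPM, with overlap (log2 fold 0.18 ± 0.11). It was called higher by library size only (0.27) and with the trend removed (0.38).

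Regions farther than 2 kb were weak, with a median of 5.30 CPM, and 3 of 40 were higher and 4 lower, against 14.8% and 21.0% of all regions. The largest change at any member was 15.4 kb outside Rpl3, which encodes a core protein near the peptidyl transferase centre. That region had 5.60, 5.39 and 4.69 CPM in control and 15.4, 19.3 and 27.01 CPM in RANKL libraries, a 3.98-fold gain (log2 fold 1.99 ± 0.22, adjusted p = 1.56e-16 by edgeR). A weak region that touches Rpl3 went from 11.2, 12.7 and 9.00 CPM to 18.6, 19.6 and 16.9 CPM (log2 fold 0.72 ± 0.20, adjusted p = 0.00127 by edgeR). The strong Rpl3 end region, with 72.9 and 70.3 CPM on average, had a log2 fold of -0.05 ± 0.11. The called gains near Rpl3 lay in its weaker regions.

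Rpl11 was the gene with changes in both directions. A region 15.7 kb away had 4.44, 4.40 and 5.63 CPM and then 8.21, 13.3 and 11.6 CPM (log2 fold 1.21 ± 0.28, adjusted p = 0.000134 by edgeR). Regions 12.4 and 27.5 kb away had log2 folds of -0.95 ± 0.34 and -0.85 ± 0.17, both called lower, the nearer one not by the DESeq2 test (adjusted p = 0.0501). The testis paralog gene Rpl10l had 4 weak regions, of which one, 36.7 kb away, was higher (0.580, 2.97 and 1.13 CPM, then 4.28, 5.43 and 4.34 CPM). That call was lost without control replicate 1 (log2 fold 1.10 in place of 1.44). Neither of the 2 regions of Rpl39l, the testis paralog of Rpl39, was called. Rps24, with 5 regions the most of any member, was lower at its start (log2 fold -0.58 ± 0.13, and -0.28 and not called with the trend removed) and not called in the other 4. The nearest gene need not be the one a distant region acts on.

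Summed over all regions of a gene, 12 of 79 genes were higher and 11 lower, against 25.5% and 27.1% of 16868 genes (52.6% called in either direction), with a median log2 fold of 0.01 for members and for all genes. The groups did not overlap at 32 of the 79, against 57.6% of all genes. Folds on this scale were a median of 0.18 above the region scale at genes with a single region, each scale having its own TMM factors. The larger gains on the gene scale were at Rpl10l (0.89 ± 0.21), Rpl35a (0.50 ± 0.10), Rpl3 (0.48 ± 0.08) and Rpl19 (0.45 ± 0.08). The larger losses were at Rpl3l (-0.85 ± 0.13), Rpl39 (-0.80 ± 0.14), Rpl10 (-0.70 ± 0.09) and Rps28 (-0.61 ± 0.11). With the trend removed 19 genes were higher and 10 lower. The shares of all genes called under that setting are not given here, and those above are with TMM.

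Other genes of protein synthesis are given on the same gene scale, where 25.5% of all tested genes were higher and 27.1% lower. Of 24 translation factors and related genes with oligopyrimidine tracts, 9 were higher and 2 lower, with a median log2 fold of 0.13. Eef1g and Eef1a1, which encode subunits of elongation factor 1, were at 0.57 ± 0.05 and 0.37 ± 0.07. The initiation factors Eif3f and Eif4a2 were at 0.63 ± 0.10 and 0.46 ± 0.08, and Rack1, a scaffold on the small subunit, at 0.29 ± 0.08. The 2 that fell were Eif4ebp1, the mTOR-controlled repressor of cap binding (-0.64 ± 0.11), and Tpt1 (-0.30 ± 0.07). Of 39 ribosome biogenesis genes, 2 were higher and 11 lower, with a median of -0.09. With the trend removed, 8 were higher and 8 lower, and the shares of all genes under that setting are not given here. Polr1a, the largest subunit of RNA polymerase I, rose (0.51 ± 0.08), while Polr1b, its second subunit, fell (-0.90 ± 0.15), as did the subunit assembly factors Tsr1 (-0.77 ± 0.12) and Nip7 (-0.55 ± 0.11).

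Of 76 mitochondrial ribosomal protein genes, which serve the separate ribosome of mitochondria, 7 were higher and 31 lower, with a median log2 fold of -0.17 (12 and 24 with the trend removed). Over all tested genes 25.5% were higher and 27.1% lower with TMM, and the shares with the trend removed are not given here. Mrpl30 (-1.03 ± 0.10) and Mrpl41 (-0.80 ± 0.11) fell and Mrpl3 (0.50 ± 0.09) rose. Of 16 growth regulators, 5 were higher and 4 lower. Among them Myc, an activator of ribosome production, was lower (-0.20 ± 0.05), as were Mtor (-0.54 ± 0.09) and the TATA-binding protein gene Tbp (-0.91 ± 0.14). The largest called rises were at Mycn (0.62 ± 0.14), Mdm2 and Cdkn1a. Larp1, which binds oligopyrimidine mRNAs, was at 0.05 ± 0.06.

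ONECUT2 sites near ribosomal protein genes were described from a table of the authors. In the authors' deposited table of sites that differ between the conditions, all 15 such sites had more reads with RANKL, as did 99.9% of the sites listed. In that table their median log2 fold was 1.65, against 1.86 for all listed sites, and the median of mean reads was 27.7 with RANKL and 8.85 in control. The authors' deposited table gives means per condition, without values per library. Of the 15 sites, 9 lay inside or within 2 kb of a gene and 6 overlapped an H3K27ac region.

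The strongest of these sites stood next to Rps23, which encodes a protein of the decoding centre: chr13:90922493-90922893, 229 bp outside the gene, with means of 103 reads with RANKL and 33.2 in control in the authors' deposited table. The site with the most significant difference there was 99.6 kb from Rplp1 (74.2 and 11.5 reads, FDR 1.73e-13), and another lay inside Rplp1 (76.3 and 23.4 reads). At Rpl22, which encodes a large subunit protein that T cell development needs, the authors' deposited table has a site at chr4:152325564-152325964 with 31.8 and 6.31 reads. Its centre is 38 bp downstream of the start whose window is printed above. That window has no ATTGAT, but it ends 20 bases from the start. The centre of the site and the bases beyond it lie outside the printed window, so the absence does not cover the whole site. Among the members with a promoter window of 300 bases, a site overlapped it at Rps23 and Rpl22.

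Where an ONECUT2 site fell in the strongest gene-end region, H3K27ac was not called at 5 of 6 genes. Over all regions 35.9% were called in either direction, and in the strongest 10% of regions 61.7%. The log2 fold of H3K27ac was 0.05 ± 0.11 at Rps23, -0.15 ± 0.11 at Rpl22, -0.25 ± 0.11 at Rplp1 and -0.23 ± 0.11 at Rpl27a. The called one was the Rpl18 region shared with Fam83e, which was lower, and whose site has Fam83e as its nearest gene. The Rpl27a region was called lower without control replicate 2 (log2 fold -0.26) or RANKL replicate 1 (-0.32). Rps23 had 52.2, 49.3 and 48.8 CPM in control and 50.7, 52.8 and 51.6 CPM in RANKL libraries, which overlapped. With the signal trend removed, the Rps23 region was called higher (log2 fold 0.34). The weak region 6.57 kb from Rps29 that holds a site was not called either (log2 fold 0.69 ± 0.41). Of the 77 strongest gene-end regions, 6 (7.79%) overlapped a listed ONECUT2 site, against 5.32% of all regions and 9.90% of the strongest 10%.

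**Figure D5:**
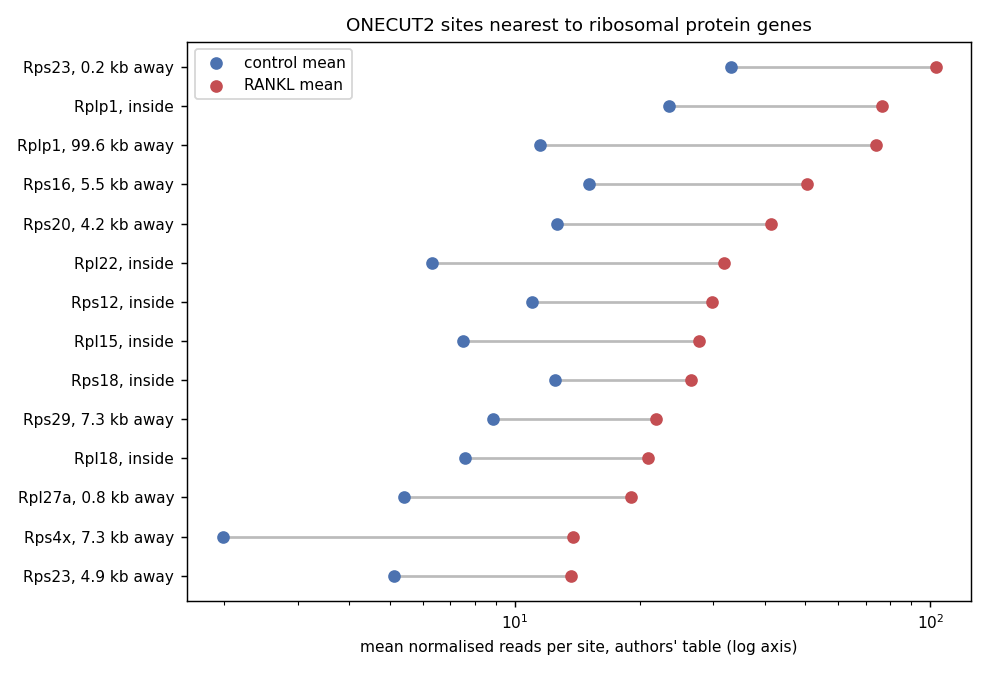
Mean normalised reads (x axis, log scale) in control (blue) and RANKL (red) for 14 of the 15 ONECUT2 sites nearest to ribosomal protein genes, from the authors' deposited table, with distance to the gene. The RANKL mean is the higher one at every site shown, from 13.6 reads at the farther Rps23 site to 103 at the nearer one.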

How the data were processed

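ChIPmentation libraries for H3K27ac and ONECUT2 were made from the organoids, 3 per group. The authors deposited raw read counts for H3K27ac regions, and for ONECUT2 the log2 mean reads per condition, log2 fold, p-value and FDR of a DiffBind comparison, per the file headers and the submitters' processing notes, which name the build mm10. For reads that map to several places, such as pseudogene copies, the handling is not given in the sources used here, nor are aligner and peak caller. The inputs and a scaled table (6 columns) were not analysed here. Region starts are printed as deposited, and may count from 0 or 1.

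The test was that of edgeR 4.0.16 under R 4.3.3 (TMM, filterByExpr, quasi-likelihood test, Benjamini-Hochberg adjustment over 54765 regions or 16868 genes, where counts of a gene's regions were summed). All tests are two-sided. Each SE of a log2 fold was derived from the test, as the absolute log2 fold divided by the square root of its F statistic. DESeq2 1.42.0 was an alternative. The trend was removed with loess offsets (span 0.3). Scripts were tested on simulated data. Region spans were matched to the nearest of 21883 RefSeq protein-coding spans.

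Libraries of a group differed by more than sampling noise (chi-square per degree of freedom 1.79 to 2.06). In the labels, each library carries an experiment number that recurs in both groups. Same-numbered libraries did not deviate together (correlations 0.0145, -0.026 and -0.00699), and the fit had no block.

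Members and lists were chosen with earlier results of these data known. Described genes were the 10 largest rises and falls, the 5 highest and lowest levels, genes with an ONECUT2 site or changes in both directions, and genes of known role; other names were chosen after their values were seen. Some genes under these rules are not reported here by name.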

Additional observations from a re-analysis of the deposited data

How the results depend on the processing

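Under the other settings, the balance of gains and losses changed most with the signal trend removed: 22 member regions were higher and 15 lower (7 and 30 with TMM), 19 gene-end regions were higher and 10 lower (4 and 26), and 19 genes were higher (12). All 4 gains and 10 of the 26 losses at gene ends were among those calls. By library size only 7 gene-end regions were higher, and within 10 kb of a gene 4 regions were higher. Summed per gene over regions within 10 kb, 16 genes were higher and 9 lower. Sums over gene-end regions only gave 17 higher and 10 lower genes, without removal of the trend. Each of these sums has its own TMM factors. Shares of all genes called with these sums or with the trend removed are not given here. Leaving out 1 library gave 4 to 8 higher and 22 to 41 lower regions, 1 to 5 higher and 18 to 38 lower gene-end regions, and 9 to 12 higher and 8 to 13 lower genes. Higher gene-end regions numbered 2 without RANKL replicate 1 and 1 without RANKL replicate 2, and higher regions 4 without RANKL replicate 2. The cause was not tested. With the replicate block, 7 regions were higher and 27 lower, 4 gene-end regions were higher and 23 lower, and 11 genes were higher and 11 lower; the call of Rpsa was lost (log2 fold -0.27). By the DESeq2 test, 5 regions were higher and 22 lower, 3 gene-end regions were higher and 19 lower, and 10 genes were higher and 9 lower. The log2 fold of Rplp0 changed sign with the trend removed, to 0.0039. A setting chosen after seeing the data, which gives a region that touches several genes to the gene nearest its centre, left 7 higher and 23 lower regions and 10 higher and 8 lower genes. Of 95 results on single genes or regions that were recomputed, no other called value changed sign, while several of those not called did with the trend removed, and 14 lost a call when 1 library was left out. The RANKL libraries hold 2745451 to 3902301 reads, and the farther regions had a median of 5.30 CPM; the part of depth in their calls was not tested.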
